A study of Mus musculus with 6 samples.

Results

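The 10 genes described here carry glucose into the heart muscle cell and break it down. They are Slc2a4, Hk1, Hk2, Pfkm, Aldoa, Gapdh, Pgam2, Eno3, Pkm and Ldhb, chosen by symbol from the 39177 gene identifiers of the count files. Each had an identifier, and all 10 passed the low-count filter that left 2294 genes for the test. Their transcripts were counted in RNA of crude heart mitochondria from 3 control mice and 3 knockout mice, which were C57BL/6N animals of 3 to 4 weeks. The controls (L/L) had Polrmt alleles with loxP sites around exon 3 and no cre, although the genotype label calls them Polrmt +/+. The knockouts (L/L, cre; labelled Polrmt -/-) also expressed cre from the muscle creatine kinase promoter, which is active in heart and skeletal muscle and not in the other cells of the heart. Polrmt encodes the RNA polymerase of mitochondria, and the comparison asks how transcripts differ when heart muscle lacks it.

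Glucose enters heart muscle through the insulin-regulated transporter GLUT4 and the basal transporter GLUT1, and hexokinases trap it as glucose 6-phosphate. Phosphofructokinase commits it to glycolysis, and aldolase, glyceraldehyde-3-phosphate dehydrogenase, phosphoglycerate mutase, enolase and pyruvate kinase lead to pyruvate. Lactate dehydrogenase converts pyruvate and lactate into each other. Heart muscle takes most of its energy from fatty acids and relies more on glucose before birth and in failure. Hexokinases 1 and 2 are known to bind the outer mitochondrial membrane, while the other enzymes work in the cytosol. All 10 are nuclear genes, so their mRNAs are present in this preparation beside mitochondria, and a level here is not a level in the whole heart.

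Control libraries held 2867067 to 3234729 counts assigned to genes, and knockout libraries 1062030 to 1227997. Transcripts of mtDNA held 79.5% to 83.5% of control counts and 21.1% to 25.8% of knockout counts. A further 5 nuclear loci that collect ribosomal RNA reads (Gm42418, Lars2, Gm23935, Gm15564 and Mir6236) held 80.6% to 84.9% of nuclear counts. The nuclear counts outside these loci, from 76949 to 109351 in controls and from 126339 to 164004 in knockouts, are the scale for every level below. CPM stands for a gene's count scaled so that these nuclear counts have the same TMM-adjusted total in each library, and 3 counts correspond to between 18.1 and 38.3 CPM. Polrmt had 3, 2 and 1 counts in controls and 2, 5 and 1 in knockouts, which is too few to check the deletion. Heart muscle markers were abundant, with 3008 to 7445 counts of Myh6, while Myh1 and Myh4, myosins of skeletal muscle, were at 0 in all 6 libraries. Each library is taken as 1 mouse. The edgeR p-values rest on a spread between libraries that is estimated partly from all tested genes together. Permutation p-values use only the values of the 6 libraries.

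Starts of transcription of the members that changed, of Hk2 and of the added isoform gene Pfkp are shown here as upstream stretches, because the level of a transcript is set in part there. Of the 10 members, 9 matched RefSeq's promoter table (GRCm38.p6) with 16 windows of 250 bases before to 50 after a start, and Slc2a4 had no entry. The stretches run 5′ to 3′ on the gene's strand from position -150 to -31 relative to the start. Aldoa (chr7:126799285-126799404, minus strand) is the second of 3 windows of its gene, and Hk1 (chr10:62379939-62380058, minus strand) the first of 2. Eno3 (chr11:70657026-70657145, plus strand), Pfkp (chr13:6648802-6648921, minus strand) and Hk2 (chr6:82774485-82774604, minus strand) have 1 window each. Capitals mark matches, on either strand, of the hypoxia response core ACGTG and of the GC box GGGCGG. Gene counts do not tell which start was used.
Aldoa: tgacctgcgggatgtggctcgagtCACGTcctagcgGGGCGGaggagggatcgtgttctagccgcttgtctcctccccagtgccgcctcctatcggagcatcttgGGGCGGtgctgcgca
Hk1: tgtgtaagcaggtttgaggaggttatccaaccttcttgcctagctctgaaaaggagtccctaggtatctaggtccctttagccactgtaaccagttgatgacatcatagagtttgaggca
Eno3: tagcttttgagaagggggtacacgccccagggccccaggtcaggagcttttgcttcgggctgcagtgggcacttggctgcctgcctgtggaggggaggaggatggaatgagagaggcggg
Pfkp: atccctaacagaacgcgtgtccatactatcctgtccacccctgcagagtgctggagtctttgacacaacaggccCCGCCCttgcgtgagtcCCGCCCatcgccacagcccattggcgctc
Hk2: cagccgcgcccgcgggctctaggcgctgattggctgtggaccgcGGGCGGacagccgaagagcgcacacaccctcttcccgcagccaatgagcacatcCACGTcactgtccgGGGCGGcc
The Aldoa and Hk2 stretches hold 1 hypoxia core and 2 GC boxes each, the Pfkp stretch 2 GC boxes, and those of Hk1 and Eno3 no match of either. The windows of 1 gene differ: the second Hk1 window, not shown, holds 2 hypoxia cores, both just after its start, and the first Aldoa window, not shown, holds neither motif. Over whole windows, 8 of the 16 member windows, from 6 of 9 genes, hold the hypoxia core, against 19.6% of all 32851 windows and 21.8% of genes. Windows of 1 gene can overlap, so these are not separate counts. The shares of genes are also not alike, since these 9 members have 16 windows and all 27025 genes have 32851. The GC box is in 4 of 16 member windows, against 35.7% of all. The E-box CACGTG, which contains the hypoxia core, is in 1 member window, at Pfkm, against 7.15% of all. No member window held the ERR core AAGGTCA (4.72% of all) or the ATF4 composite element TGATGNAAN (3.95%). These are matches of letters and show no binding.

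Among the 10 members, Hk1 and Aldoa were higher in knockouts and Eno3 was lower (edgeR quasi-likelihood test, Benjamini-Hochberg adjusted p under 0.05), while 7 did not pass. Over all tested genes, 9.02% were called higher and 7.89% lower. The control and knockout libraries did not overlap for 4 members that were higher and 3 that were lower, against 17.4% and 16% of all tested genes (33.4% in either direction). The median log2 fold change of the members was 0.28, beside -0.01 for all tested genes, with 7 members fitted above 0 and 3 below. The members therefore did not move as 1 group: Hk1 and Aldoa were called higher and Eno3 lower, and the values of Slc2a4 and Pfkm, which did not pass, were lower. In bulk RNA such as this, fewer cells of a type and less RNA per cell cannot be told apart.

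**Figure D1:**
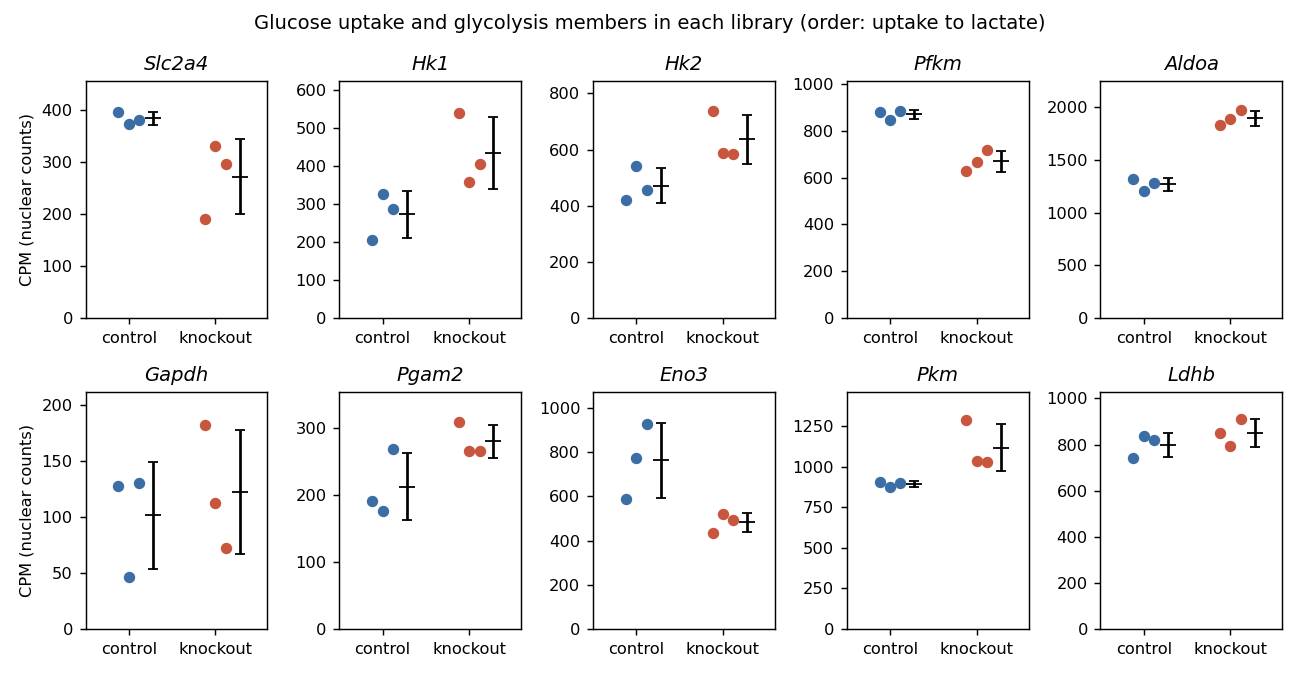
CPM of each member (vertical axes, CPM of nuclear counts, each from 0) in 3 control and 3 knockout libraries, with the mean and SD as bars beside the points. The Aldoa points of the knockouts, from 1824 to 1965, all lie above the controls, and those of Eno3, from 436 to 519, all lie below them on this nuclear scale.

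Slc2a4 (ENSMUSG00000018566, chromosome 11, 69942539 to 69948188), which encodes GLUT4, had 396, 373 and 381 CPM in controls. Knockouts had 190.3, 329.5 and 295 CPM. All knockout values lay below all controls, and knockout 1 was far below the other two. The means were 383 ± 11.9 and 272 ± 72.5 CPM (SD, n = 3 each), and the fitted difference of -0.47 ± 0.21 SE (log2) did not pass (edgeR adjusted p = 0.108) and took a positive sign when libraries were scaled by their totals alone. Slc2a1, the gene of GLUT1, had 3, 1 and 2 counts in controls and 7, 4 and 7 in knockouts and was under the filter. The ratio of knockout to control for Slc2a1 was 2.02 with a 95% Poisson interval from 0.770 to 6.23, so no difference was detectable at this depth. That interval pools the counts of each group and covers counting error only. Per library, Slc2a1 gave 2.44% to 8.82% of the counts of Slc2a1 and Slc2a4 in controls and 7.84% to 22.6% in knockouts, and these ranges overlap (exact permutation p = 0.2).

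Hk1 (ENSMUSG00000037012, chromosome 10, 62268855 to 62379908) encodes the hexokinase found in most tissues and dominant in the fetal heart. Its levels were 204, 326 and 288 CPM in controls and 539, 358 and 404 CPM in knockouts. The lowest knockout lay just above the highest control. The mean rose from 273 ± 62.2 to 434 ± 94.4 CPM (SD over 3 libraries each), 1.54-fold (0.63 ± 0.21 SE on the log2 scale, with an edgeR adjusted p of 0.0249). The call was lost, with a smaller log2 fold change, without control 1 (0.47, edgeR adjusted p = 0.168) and without knockout 1 (0.46, adjusted p = 0.196). It was also lost at nearly the reported log2 fold change without control 3 (0.64, edgeR adjusted p = 0.0790) and with DESeq2 (0.62, adjusted p = 0.295). Hk2 (ENSMUSG00000000628, chromosome 6, 82725025 to 82774454) encodes the insulin-responsive hexokinase of adult muscle. It had 421, 540.1 and 455 CPM in controls and 738, 589 and 585 CPM in knockouts, again with no overlap. Its log2 fold change was 0.41 ± 0.17 SE, which did not pass (edgeR adjusted p = 0.0842).

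The balance of both hexokinases did not shift beyond the spread. Hk1 gave 32.7% to 38.8% of their joint counts in controls and 37.8% to 42.2% in knockouts. The log2 ratio of Hk1 to Hk2 was -0.80 ± 0.20 in controls and -0.56 ± 0.14 in knockouts (SD, 3 libraries a group), with an exact permutation p of 0.2 and 0.3 after adjustment over 6 ratios. Hk3 and Hkdc1, which encode further hexokinases, had no counts in any library.

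Pfkm (ENSMUSG00000033065, chromosome 15, 98092589 to 98132451) is the muscle subunit of phosphofructokinase. It had 881, 847 and 883 CPM in controls and 627, 666 and 717 CPM in knockouts. Each knockout lay below each control, and the spread within groups was small. The log2 fold change of -0.37 ± 0.15 SE did not pass (edgeR adjusted p = 0.0821). It passed with TMM and the low-count filter both taken from total library sizes (edgeR adjusted p = 0.0376). It lay above 0 when libraries were scaled by their totals alone. Pfkp, the platelet subunit, had 89.4, 65.2 and 92.9 CPM in controls and 317, 217 and 211 CPM in knockouts. It rose 2.97-fold (1.57 ± 0.31 SE on the log2 scale, with an edgeR adjusted p of 3.70e-05). Of the distinct 50-base words of its RefSeq mRNAs, 16.3% also occur in transcripts of Pitrm1, which held 17 counts in controls and 22 in knockouts, fewer than the 24 and 106 of Pfkp. Pfkl, the liver subunit, had 63.9, 93.1 and 92.9 CPM in controls and 254, 133 and 90.4 CPM in knockouts, which overlap, and did not pass (edgeR adjusted p = 0.0952).

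Phosphofructokinase was the 1 step of the 6 compared in which the isoform makeup did not overlap between the groups. Pfkl and Pfkp together gave 14.8%, 15.7% and 17.4% of phosphofructokinase counts in controls. In knockouts they gave 47.7%, 34.5% and 29.6%. The log2 ratio of both to Pfkm went from -2.36 ± 0.13 to -0.76 ± 0.57 (SD, n = 3 each), a difference of 1.60. An exact permutation test gave p = 0.1, which is its lower limit with 3 libraries a group, and 0.3 after adjustment over 6 ratios. A ratio within a library needs no scaling between libraries.

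**Figure D2:**
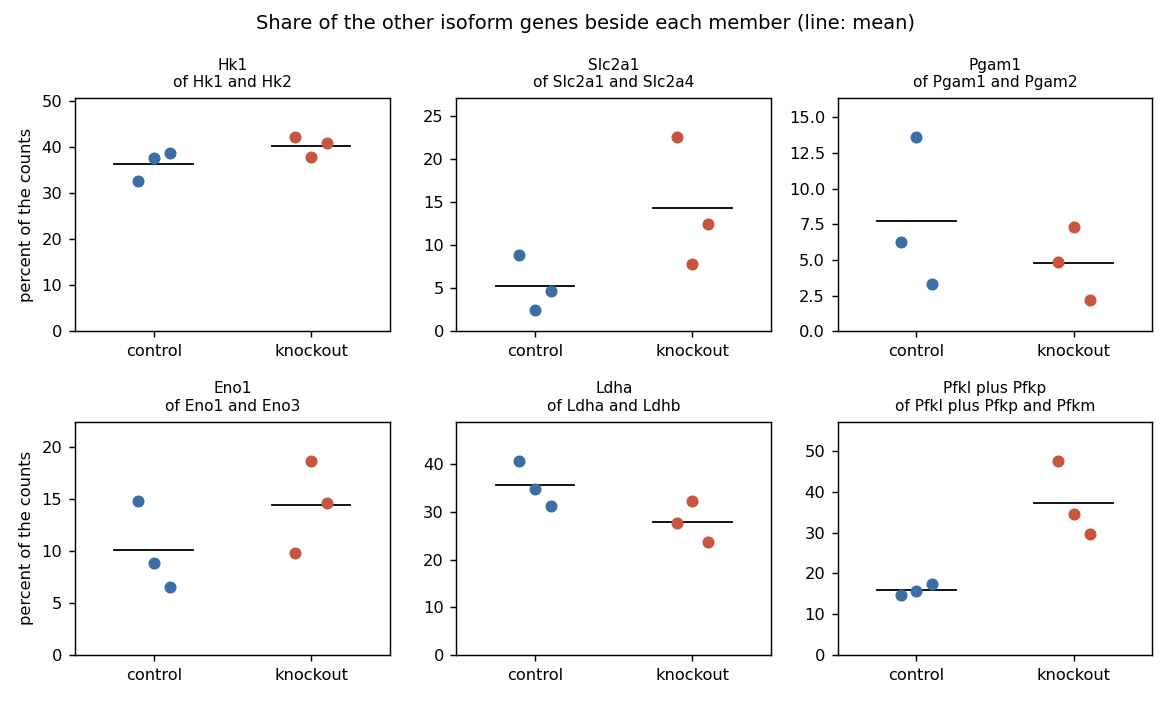
Share of the counts (vertical axes, percent, each from 0) that came from the other isoform gene of a step beside the member, in 3 control and 3 knockout libraries, with the group mean as a line. The share of Pfkl plus Pfkp is 14.8% to 17.4% in controls and 29.6% to 47.7% in knockouts, and the other 5 shares overlap between the groups.

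Aldoa (ENSMUSG00000030695, chromosome 7, 126795234 to 126800751), the aldolase of muscle, had the smallest adjusted p of the members. It had 1316, 1201 and 1282 CPM in controls. Knockouts had 1824, 1886 and 1965 CPM. The lowest knockout stood well above the highest control. The mean rose from 1266 ± 58.7 to 1892 ± 70.8 CPM (SD over 3 libraries each), 1.50-fold (0.58 ± 0.14 SE on the log2 scale, with an edgeR adjusted p of 7.62e-04). Aldoc, the aldolase gene of brain, had no counts in any library. Aldoa made up 20.03% to 22.8% of the members' joint counts in controls and 26.1% to 29.2% in knockouts.

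Gapdh (ENSMUSG00000057666, chromosome 6, 125161715 to 125166467), which oxidises glyceraldehyde 3-phosphate, had only 10, 5 and 14 counts in controls and 23, 16 and 12 in knockouts. The groups overlap, and the log2 fold change of 0.25 ± 0.37 SE had no stable sign: it was -0.15 without control 2 and -0.12 without knockout 1. Gapdh has many processed copies in the genome. Of the distinct 50-base words of its RefSeq mRNAs, 78.3% also occur in transcripts of other genes, and the sources used here do not say how reads with several alignments were counted. The Gapdh value is therefore uncertain, and its count is no reference for the others. The same holds for Pgk1, the next enzyme of the pathway, with 68.0% shared words and 9 counts in controls and 30 in knockouts, and for Eno1 with 72.2%, so the share of Eno1 below is uncertain too. Among the other members, the shared part was 36.3% for Pkm, 27.0% for Ldhb and 11.2% for Aldoa, 2.34% for Hk1, and 0 for Slc2a4, Hk2, Pfkm, Pgam2 and Eno3.

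Pgam2 (ENSMUSG00000020475, chromosome 11, 5801640 to 5803733), the muscle phosphoglycerate mutase, had 192, 177 and 269 CPM in controls and 309, 266 and 265 CPM in knockouts. Control 3 reached the knockout range, so the groups overlap. The log2 fold change was 0.38 ± 0.23 SE (edgeR adjusted p = 0.294). Pgam1, the form of most tissues, was counted 5 times in all controls and 6 times in all knockouts, and its share showed no shift beyond the spread (exact permutation p = 0.4).

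Eno3 (ENSMUSG00000060600, chromosome 11, 70657202 to 70662513), the muscle enolase, was the member that fell. It had 588, 773 and 929 CPM in controls and 436, 519 and 494 CPM in knockouts. The controls varied more than the knockouts, and all lay above them. The mean went from 763 ± 171 to 483 ± 42.4 CPM (SD over 3 libraries each), 1.60-fold lower (-0.67 ± 0.16 SE on the log2 scale, with an edgeR adjusted p of 0.00131), and the value was 1.30 on the log2 scale when libraries were scaled by their totals alone. The call was lost without control 3, the highest control (adjusted p = 0.0618), and with DESeq2 (0.0759). Eno1, the enolase of most tissues, gave 6.54% to 14.8% of the counts of both genes in controls and 9.84% to 18.7% in knockouts (exact permutation p = 0.3).

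Pkm (ENSMUSG00000032294, chromosome 9, 59656368 to 59679375) encodes the pyruvate kinases of muscle. It had 907, 875 and 901 CPM in controls and 1285, 1038 and 1031 CPM in knockouts, with no overlap. The controls lay close together, and knockout 1 was apart from the other two. The log2 fold change of 0.32 ± 0.15 SE did not pass (edgeR adjusted p = 0.134). Gene counts do not separate its splice forms, PKM1 of adult muscle and PKM2 of fetal and growing tissues. Ldhb (ENSMUSG00000030246, chromosome 6, 142490249 to 142507957), the lactate dehydrogenase subunit typical of heart, had 741, 838 and 818 CPM in controls. Knockouts had 849, 792 and 910.3 CPM, within and just above the control range. Its log2 fold change was 0.09 ± 0.15 SE (edgeR adjusted p = 0.762). Ldha, the subunit of fast muscle, differed by -0.42 ± 0.19 SE (log2) without passing (edgeR adjusted p = 0.132), and its share of both went from 31.3% to 40.8% in controls to 23.7% to 32.3% in knockouts, which overlap (exact permutation p = 0.2).

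**Figure D3:**
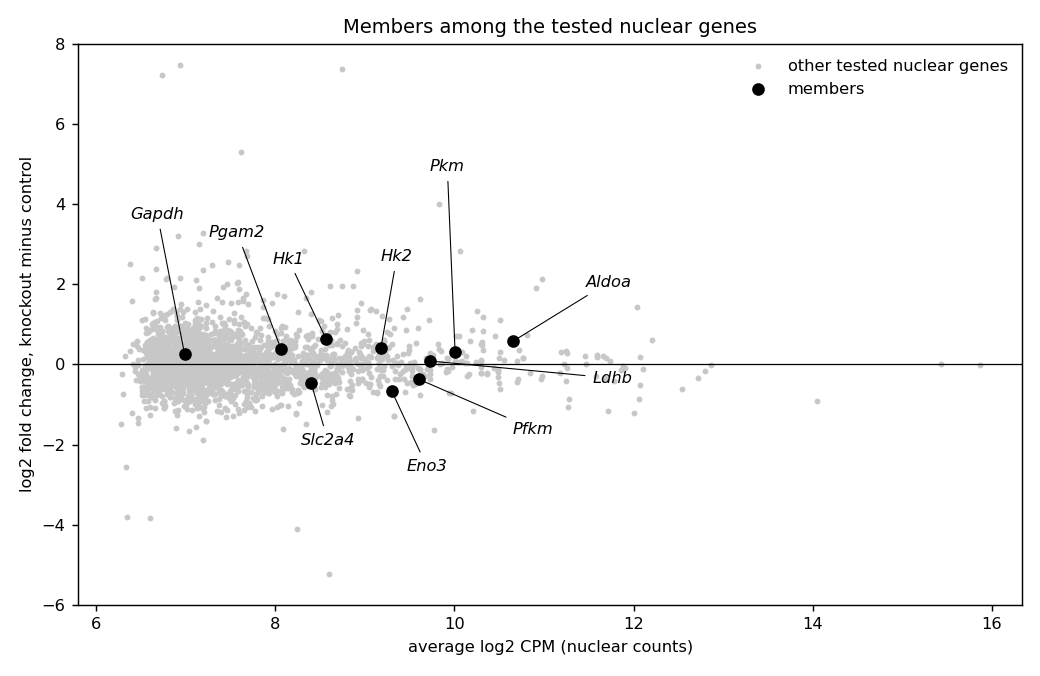
Log2 fold change, knockout minus control (vertical axis), against average log2 CPM (horizontal axis) for the tested nuclear genes, without the 5 loci that collect ribosomal RNA reads, with the members in black. The members lie between -0.67 (Eno3) and 0.63 (Hk1), inside the cloud of other genes, and the 3 below 0 turn positive when libraries are scaled by their totals alone. With that scaling the median tested nuclear gene lies at 2.06.

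Among the knockouts, knockout 1 was the library farthest from the controls for 8 of the 10 members, and knockout 3 for Aldoa and Ldhb. How often this holds over all tested genes was not counted, so whether it is particular to the members is not known. Without knockout 1, Aldoa remained higher and Eno3 lower, and the call of Hk1 was lost. The mtDNA share of knockout 1 was 21.1%, the lowest of the 6 libraries and close to the 21.4% of knockout 2. Knockout 1 also had the fewest nuclear counts of the knockouts, 126339 against 143790 and 164004. Its share of nuclear counts in the loci that collect ribosomal RNA reads, 84.9%, was the highest of the 6 libraries. The part of these differences in the members' values was not tested.

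Together, the 10 members held 452, 644 and 682 counts in controls and 880, 935 and 1118 in knockouts. As a share of nuclear counts this was 0.587%, 0.598% and 0.624% in controls and 0.697%, 0.650% and 0.682% in knockouts. The exact 95% Clopper-Pearson intervals run from 0.535% to 0.644% in control 1 and from 0.642% to 0.723% in knockout 3, and cover counting error only. The groups did not overlap, with means of 0.603% ± 0.0186 and 0.676% ± 0.0236 (SD, n = 3 each, exact permutation p = 0.1, the smallest possible). Aldoa, with means of 1266 CPM in controls and 1892 CPM in knockouts, had the largest difference in mean CPM of the 10. The means of Slc2a4, Pfkm and Eno3 were lower in knockouts, so the sum is not a rise of every member. With the loci that collect ribosomal RNA reads kept in the total, the means were 0.108% and 0.112% (exact permutation p = 0.8), so the higher share depends on leaving them out.

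Levels of different members were compared per kilobase of RefSeq mRNA. In controls the order was Aldoa at 838 ± 38.9 CPM per kb, Ldhb at 613 ± 39.3, Eno3 at 506 ± 113 and Pkm at 400.0 ± 7.50 (SD, n = 3 each). Then came Pfkm at 309 ± 7.08, Pgam2 at 253 ± 59.2, Slc2a4 at 152 ± 4.71 and Hk2 at 85.7 ± 11.1. Gapdh, at 75.4 ± 35.3, and Hk1, at 67.1 ± 15.3 CPM per kb, were last. Neighbours whose libraries overlapped were Ldhb and Eno3, Eno3 and Pkm, Pfkm and Pgam2, Hk2 and Gapdh, and Gapdh and Hk1. In knockouts Aldoa, at 1252 ± 46.9 CPM per kb, was again above all others. By its mean, Eno3 moved from the third to the fifth place. Its knockout libraries lay below those of Pkm but overlapped those of Pgam2, the gene just before it. Slc2a4, Hk2 and Hk1 lay together between 107 and 116 CPM per kb. With the length of all annotated exons in place of the mRNA, Ldhb came before Eno3 and Aldoa in controls.

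The authors' deposited table gives all 10 members, and its log2 fold changes have the same sign as those above for each. In the authors' deposited table Aldoa had 0.62 (false discovery rate 4.08e-04) and Eno3 -0.66 (0.0454), while Hk1 had 0.62 with a false discovery rate of 0.0855. Both analyses use the same libraries, so the table is no separate evidence.

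Of 79 other genes of glucose handling listed for this tissue, 35 were tested, 8 were higher and 1 was lower (edgeR adjusted p under 0.05), against 9.02% and 7.89% of all tested genes. Their median log2 fold change was 0.30. Among 7 tested genes of other glycolytic isoforms and steps, Pfkp rose and 6 did not pass, including Gpi1 at 0.45 ± 0.18 SE (adjusted p = 0.0629) and Tpi1 at 0.41 ± 0.18 SE (0.119), on the log2 scale. The 2 tested transport genes, Slc16a1, which carries lactate, and Mpc2, a subunit of the mitochondrial pyruvate carrier, did not pass (1 of 2 with an unadjusted edgeR p under 0.05, 0 called by DESeq2). H6pd was the 1 tested gene of the pentose phosphate list, and it did not pass.

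Glycogen genes gave 4 of the 8 rises and the 1 fall. Ugp2, which makes the UDP-glucose from which glycogen is built, had 229.9, 121 and 177 CPM in controls and 611, 652 and 742 CPM in knockouts. It rose 3.90-fold (1.96 ± 0.21 SE on the log2 scale, with an edgeR adjusted p of 5.79e-13). Gyg, glycogenin, the protein primer of glycogen, rose 3.13-fold (edgeR adjusted p = 1.12e-05): the controls had 80.2 ± 19.8 CPM and the knockouts 259.6 ± 60.7 (SD over 3 libraries). Pgm1, which interconverts glucose 1-phosphate and glucose 6-phosphate, rose 1.70-fold (edgeR adjusted p = 0.0141), a call lost without control 2 (0.314), without knockout 2 (0.0656) and with DESeq2 (0.258). Gys1, the muscle glycogen synthase, rose 1.69-fold, barely past the threshold (edgeR adjusted p = 0.0478), and the call was lost in 11 of 14 other settings. Pygb, the brain form of glycogen phosphorylase, had 958, 820 and 818 CPM in controls and 468, 526 and 591 CPM in knockouts. It fell 1.62-fold (-0.69 ± 0.16 SE on the log2 scale, with an edgeR adjusted p of 4.81e-04). When libraries were scaled by their totals alone, its value was 1.31 on the log2 scale. Pygm, the muscle form, did not pass (-0.15 ± 0.15 SE, log2; edgeR adjusted p = 0.539).

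Of 6 tested genes of the NADH shuttles, Got1, the cytosolic aspartate aminotransferase of the malate-aspartate shuttle, rose 2.17-fold (edgeR adjusted p = 1.92e-08), and 5 did not pass. Got1 had 503 ± 58.0 CPM in controls and 1094 ± 91.1 in knockouts (SD over 3 libraries). Of 10 tested genes that control glucose uptake and use, Txnip and Hif1a rose and 8 did not pass, including Insr, Irs1, Akt2, Tbc1d4 and Mef2a. Txnip, a protein that lowers glucose uptake and is induced by glucose, had 345, 196 and 344 CPM in controls and 722, 694 and 802 CPM in knockouts (1.35 ± 0.19 SE on the log2 scale, with an edgeR adjusted p of 7.78e-09), and 18.1% of its 50-base words are shared with other genes. Hif1a, the oxygen-regulated transcription factor whose targets include many glycolytic genes, had 128, 93.1 and 111 CPM in controls. Knockouts had 341, 273 and 283 CPM, which is 2.71-fold higher (1.44 ± 0.27 SE on the log2 scale, with an edgeR adjusted p of 1.65e-05). A level of Hif1a mRNA says nothing of its protein, which is known to be controlled mainly by its breakdown.

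**Figure D4:**
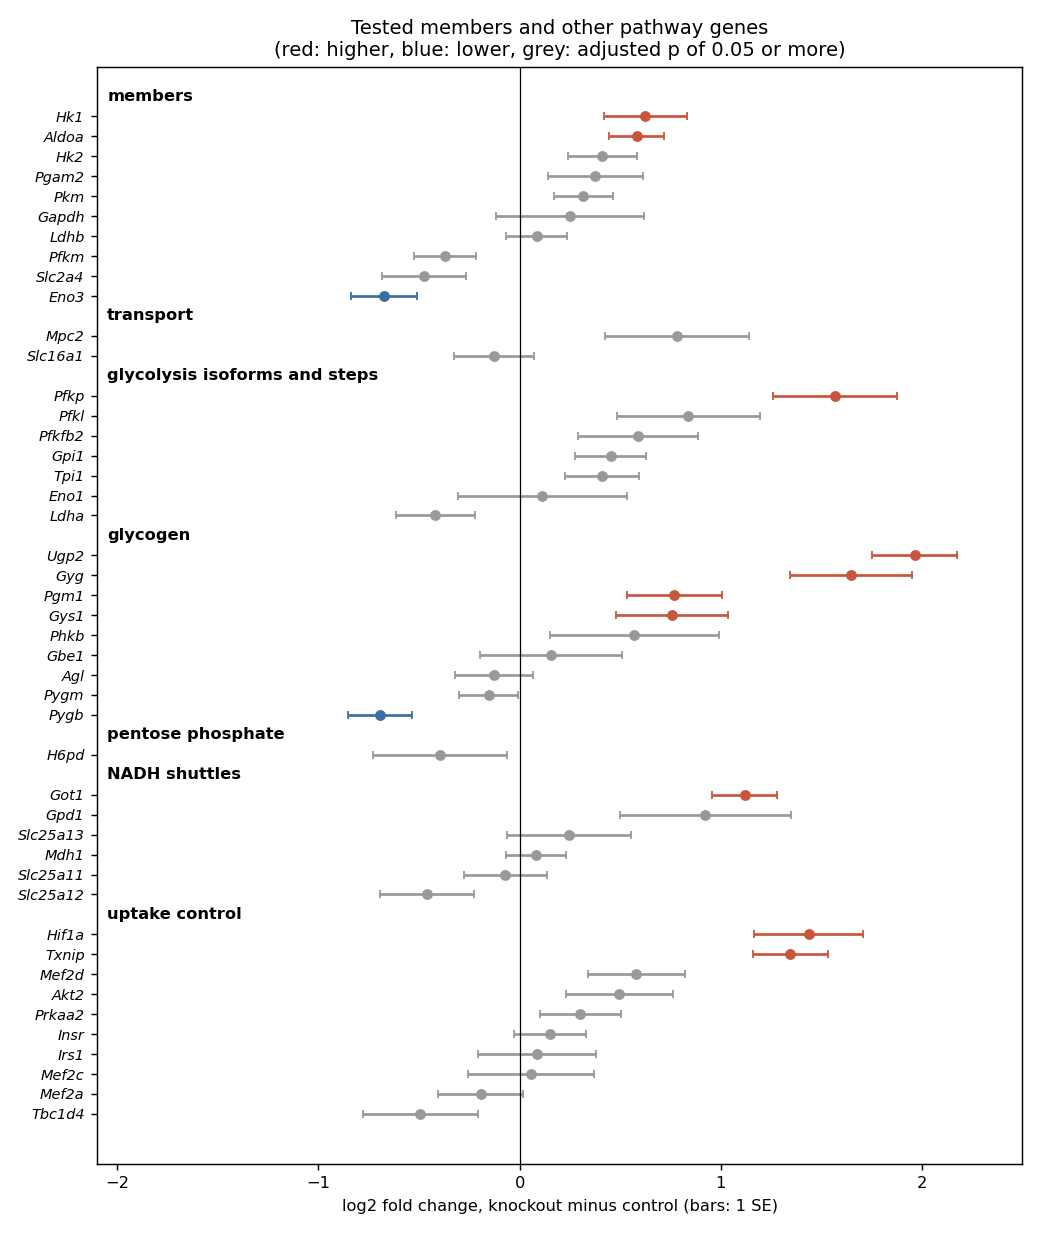
Log2 fold change, knockout minus control (horizontal axis, bars of 1 SE), for the 10 members and the 35 tested other genes of glucose handling, grouped by list. Red marks genes called higher, blue those called lower and grey those that did not pass. The largest are Ugp2 at 1.96 and Gyg at 1.65. Eno3, Slc2a4, Pfkm and Pygb, here below 0, turn positive when libraries are scaled by their totals alone, where the median tested nuclear gene lies at 2.06.

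The genes whose levels followed the 3 called members most closely over the 6 libraries were picked by Pearson's r of log2 CPM among 1129 tested nuclear genes of at least median level. For Aldoa these were Chchd10, a mitochondrial intermembrane protein (r = 0.995), and Eprs, an aminoacyl-tRNA synthetase (r = 0.994), which both were called higher. For Eno3 they were Col15a1, a basement membrane collagen (r = 0.994), which was not called, and Fhod3, a formin of heart muscle (r = 0.984), which was lower. For Hk1 they were Vwa8 (r = 0.990), which was higher, and Actr3, of the actin-branching complex (r = 0.986), which was not called. The highest of so many r over 6 libraries that share groups and scaling is a description only.

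Markers of cell types were set beside these values. Of 7 tested heart muscle markers 4 were lower, against 7.89% of all tested genes, and 3 did not pass (Myh6, Tnni3 and Myl2). The lower ones were Ryr2 (2.32-fold), Pln (2.10-fold), Actc1 (1.54-fold) and Tnnt2 (1.32-fold). The summed level of all 7 was 63122 to 76213 CPM in controls and 59767 to 64778 CPM in knockouts. Most of that sum was Myh6, with a mean of 44177 CPM in controls and 44372 in knockouts, so the sum says little of the other markers. Of 7 fibroblast markers 2 were lower, of 4 tested endothelial markers 0 (1 with an unadjusted edgeR p under 0.05, 0 called by DESeq2), of 5 tested smooth muscle and pericyte markers 2, and of 2 tested macrophage markers both. The summed macrophage markers went from between 438 and 664 CPM in controls to between 206 and 241 CPM in knockouts. Red cell markers, which matter because red cells live on glycolysis, were called in 0 of 4 tested genes (edgeR unadjusted p between 0.110 and 0.958, 0 of them under 0.05, 0 called by DESeq2), with sums of 857 to 1877 and 932 to 1682 CPM. In the skeletal muscle list Acta1 was higher and Ckm did not pass, while Myh1 and Myh4 were at 0 and Tnnt3 had 1 count in all. The part of these differences in the members' values was not tested.

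**Figure D5:**
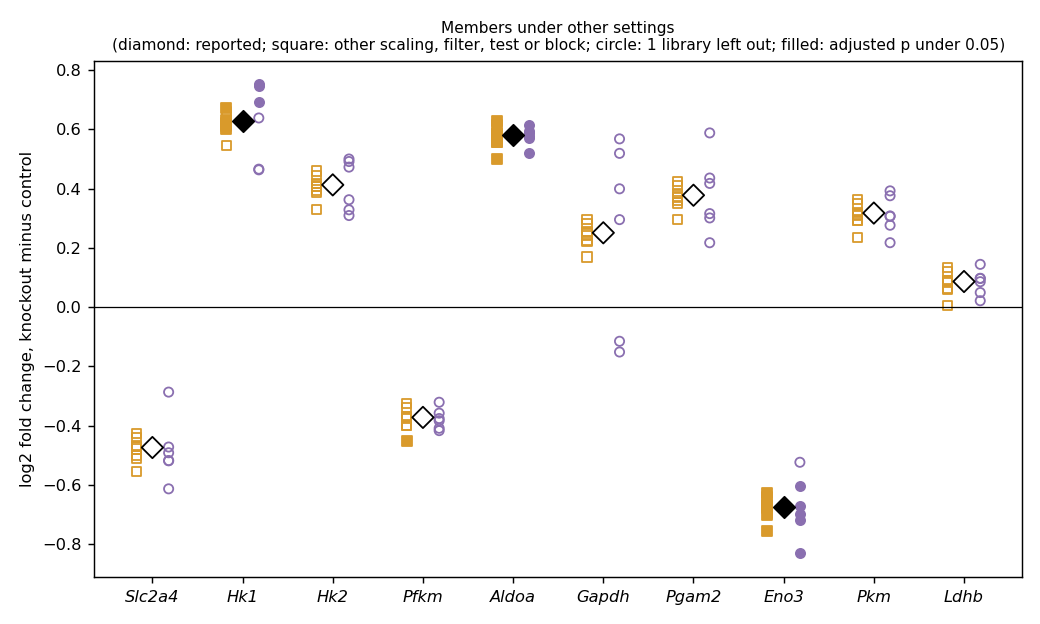
Log2 fold change of each member (vertical axis) as reported (diamond), under other scaling, filters, tests or the replicate block (squares) and with 1 library left out (circles), filled where the adjusted p is under 0.05; scaling by totals alone, which puts all 10 members above 0, is not drawn. Aldoa is filled in all 14 other settings, from 0.50 to 0.63, while Hk1 is filled in 8 and Eno3 in 12 of 14.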

How the data were processed

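The authors' deposited files hold raw gene counts as whole numbers, 1 file per library. Per the submitters' processing notes, the build was GRCm38 and the tools included edgeR 3.11.2, R 3.2.0, featureCounts 1.3.5-p4 and HISAT 0.1.6. How strand and multiple alignments were handled, and which annotation was used, is not given in these sources. The authors' deposited table gives, per the file headers, log2 fold changes, a likelihood ratio score, p-values and false discovery rates. Deposited normalised values were not used.

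Symbols, positions and transcripts came from GENCODE M21 (GRCm38), in which 37656 of 39142 nuclear identifiers had a symbol. Library size was the nuclear count without the 5 loci that collect ribosomal RNA reads. The low-count filter (filterByExpr, minimum count 10, minimum total count 15) used these sizes, since total sizes differ through mtDNA. TMM was computed over nuclear genes, and all genes passing, mtDNA included, were tested with edgeR 4.0.16 in R 4.3.3 (quasi-likelihood, robust, 2-sided), called at an adjusted p under 0.05. SE is the one implied by the F statistic. The procedure was tested on simulated data. Log2 ratios used 0.5 added to each count and 2-sided exact permutation tests (scipy 1.17.1). Shared words are exact matches of 50 bases in transcripts of another gene, on either strand.

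Named were all members, the called genes of the pathway lists, isoforms of members, and the 2 genes most like each called member. Pgk1, and uncalled genes given with values, were named after their values were seen. Some listed genes are not reported here. The members and lists were chosen with earlier results of these data known.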

Additional observations from a re-analysis of the deposited data

How the results depend on the processing

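Scaling by library totals alone turned the signs of Slc2a4, Pfkm and Eno3, while the other members stayed above 0. With TMM and filter from total library sizes, mtDNA included, all 10 members kept their signs. Slc2a4 was then at -0.55, Pfkm at -0.45, Eno3 at -0.75 and Ldhb at 0.005 on the log2 scale. With no scaling beyond the total library size, and the low-count filter on those totals, 3363 genes were tested in place of 2294. Then 10 members were called higher and 0 lower, as were 42 and 0 of the other pathway genes, and 3325 and 18 of the 3363 genes. The reported fit called 207 higher and 181 lower of its 2294. The median nuclear log2 fold change was then 2.06, so relative to it Slc2a4 (1.52), Pfkm (1.62), Eno3 (1.30) and Pygb (1.31), whose signs turned, still lay below the median. Calls were 53.4% higher against lower as reported and 99.5% so with scaling by totals alone.

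Against 2 members higher and 1 lower as reported, TMM and filter from total library sizes (3363 genes tested, so that both choices changed) gave 1 and 2, DESeq2 1 and 0, and no low-count filter (14236 genes tested) 1 and 1. DESeq2 called 96 of the 2294 genes higher and 74 lower. The replicate block gave 2 and 1 members, lost, of the named called genes, the call of Gys1 (adjusted p = 0.0578), and left the ratio differences at their values, with 1.60 for phosphofructokinase (exact sign-flip permutation p = 0.25, the smallest for 3 pairs). Same-numbered libraries correlated at 0.0651 to 0.0842 in their deviations, so the numbers were not taken as pairs. Leaving out 1 library gave 1 to 2 members higher and 0 to 1 lower, and Gapdh ranged from -0.15 (without control 2; -0.12 without knockout 1) to 0.57 on the log2 scale, turning sign. The 6 isoform ratios and the summed share kept their direction in every setting run.

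A member at the level of Gapdh, with 5 to 23 counts per library, gives no precise fold change at this depth.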
